A study of Mus musculus with 6 samples.

Results

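The VEGF and angiopoietin system was followed through 10 genes: the ligands Vegfa, Vegfb and Vegfc, the receptor tyrosine kinases Kdr, Flt1 and Flt4, the co-receptors Nrp1 and Nrp2, and the Tie2 ligands Angpt1 and Angpt2. They were chosen by name. They are 10 of 18193 genes that the platform annotation names on the array, and all 25 probe sets (of 45037) that it assigns to exactly 1 of these symbols were taken; 0 probe sets name a member together with another gene. RNA extracted from the entire mouse uterus was hybridised for 3 controls (Ihh f/f, floxed Indian hedgehog alleles with no Cre named) and 3 Ihh-ablated samples (PRcre/+ Ihh f/f, also written Ihhd/d), in which Cre from the progesterone receptor locus removes Ihh. All 6 carry the floxed alleles and were collected on day -1 of an artificial decidual response. That response is a regimen of hormones and a uterine stimulus in which the stroma differentiates as it does in pregnancy. The Cre acts wherever the progesterone receptor gene is expressed, and it is present only in the Ihh-ablated samples, so an effect of the Cre allele and one of Ihh loss cannot be told apart. The labels give no age or strain and do not say whether each sample is a separate mouse, so the p-values cover only sample-to-sample spread that could be technical. A further label mentions a Smoothened model for both groups, and grouping followed the titles and genotypes instead.

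VEGF-A, secreted by epithelial, stromal and immune cells, drives endothelial growth and permeability mainly through the receptor VEGFR2, the product of Kdr. Flt1 encodes VEGFR1, which binds VEGF-A tightly but signals weakly and so limits its supply, and which is also the receptor of VEGF-B, while Flt4 encodes VEGFR3, the receptor of VEGF-C on lymphatic vessels. Angiopoietin-1 activates the endothelial receptor Tie2 and steadies vessels, and angiopoietin-2 opposes it in many settings. In the uterus oestrogen raises Vegfa, and new vessels accompany decidualization.

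The upstream sequences of Vegfa and Vegfb are shown because these are the ligands in which each Ihh-ablated array read above each control array on the gene's brightest probe set. They are the 250 bases before the annotated start, from RefSeq on build GRCm38.p6, both on the minus strand and written 5′ to 3′ along the gene, with GC boxes (GGGCGG on either strand) in capitals.
Vegfa, chr17:46032378-46032627: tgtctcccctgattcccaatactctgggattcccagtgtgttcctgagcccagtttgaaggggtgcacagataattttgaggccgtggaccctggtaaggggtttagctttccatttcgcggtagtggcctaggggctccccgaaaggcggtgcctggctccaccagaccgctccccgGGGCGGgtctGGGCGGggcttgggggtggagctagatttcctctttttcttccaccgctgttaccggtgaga
Vegfb, chr19:6987652-6987901: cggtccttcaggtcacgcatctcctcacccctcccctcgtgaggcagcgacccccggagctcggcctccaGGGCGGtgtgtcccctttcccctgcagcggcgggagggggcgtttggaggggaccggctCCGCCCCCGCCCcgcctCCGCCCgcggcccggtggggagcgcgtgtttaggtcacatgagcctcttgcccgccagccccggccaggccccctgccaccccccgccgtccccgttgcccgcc
The Vegfa stretch holds 2 GC boxes, the letters that Sp1 family factors bind, and the Vegfb stretch holds 4. RefSeq gave 9 such stretches for 8 of the 10 members, with 2 starts for Vegfa, and all 9 held a GC box, against 32.7% of 32851 promoters. The core of the hypoxia response element (ACGTG, either strand) was in 1 of the 9, that of the other Vegfa start, against 16.6% of all promoters. That stretch (chr17:46025164-46025413) lies downstream of the one shown, and the letters around its match read as codons of VEGF-A. The Vegfa stretch shown held 0 such matches. The Gli site GACCACCCA was in 0 of the 9 and in 0.225% of all promoters. AGGTCA, a hexamer bound by only some steroid receptors, was in 2 of the 9, those of Nrp1 and Vegfb, against 14.0%. These matches describe letters in a short window and nothing measured on these arrays.

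Median intensities of the 6 arrays lay between 121.4 and 142.5, and Pearson correlations between arrays, across probe sets that are not independent replicates, between 0.951 and 0.990. Arrays had no stated detection limit, and 3 per group limit the precision. Gli1, whose transcription reports Hedgehog signalling, read 355.7 to 515.2 in control uteri against 64.8 to 76.3 after Ihh ablation (log2 difference -2.53, limma adjusted p = 0.000492), and Ptch1, the Hedgehog receptor and target, differed by -1.65 (adjusted p = 0.00146). The Ihh probe set itself differed by -0.43 (adjusted p = 0.164), and where it lies relative to the deleted part was not analysed here. Markers of tissues outside the uterus stood apart on some arrays. Summed intensity of 7 exocrine pancreas markers was 65289 in Ihh-ablated replicate 2 and 772 to 2349 on the other arrays. Summed intensity of 10 skeletal muscle markers was 5737, 5427 and 16058 in the controls and 2420, 2273 and 2877 in the Ihh-ablated arrays. Each control was above each Ihh-ablated array. Most of the sum in control replicates 1 and 2 came from Acta1, the skeletal muscle actin (4164.0 and 3558.6). Mylpf read 83.9 and 88.5 there, 2075.5 in control replicate 3 and 73.7 to 86.6 after Ihh ablation. Groups did not overlap for 6 of the 10 genes, against 5018 of 15530 genes over the array, and only Acta1 passed (log2 -1.73, adjusted p = 0.00208). Adipocyte markers (9 genes) summed to 3449, 8612 and 14584 in control and to 11627, 16999 and 26803 in Ihh-ablated uteri, lowest in control replicate 1 and highest in Ihh-ablated replicate 3, with 0 of the 9 past the test. Markers of endometrial stroma (12 genes, summed intensity 51485 to 57763), smooth muscle (8 genes, 49828 to 53962) and uterine epithelium (11 genes, 11475 to 18142) were bright on every array, as fits the labelled tissue.

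Among the members, a single Vegfa probe set rose in Ihh-ablated uteri, by 1.68-fold, and no member probe set fell. Of the 25 probe sets 24 were bright enough to be tested, and of these 1 was higher and 0 were lower at an adjusted p under 0.05 (limma, adjusted over 33777 probe sets). Over the whole array 1.03% of tested probe sets were higher and 1.11% lower (348 of 724 calls were higher, against 286 of 487 with median-centred arrays). Counting each gene by its brightest probe set, 1 of 10 members was higher (Vegfa) and 0 were lower, against 1.28% and 1.53% of 15530 genes. Both shares of members rest on 1 call and are too small to set against that background. The other 23 tested probe sets did not pass, with 95% intervals of the log2 difference that reached from -0.66 to 0.77 at their widest and stayed within 2-fold for all 23. The median log2 difference was 0.11 over the 24 member probe sets, 17 of which were above 0 (21 with median-centred arrays), and -0.04 over all probe sets tested, 14667 of which were above 0. Groups did not overlap for 4 of the 24, and for 31.0% of all tested probe sets.

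**Figure D1:**
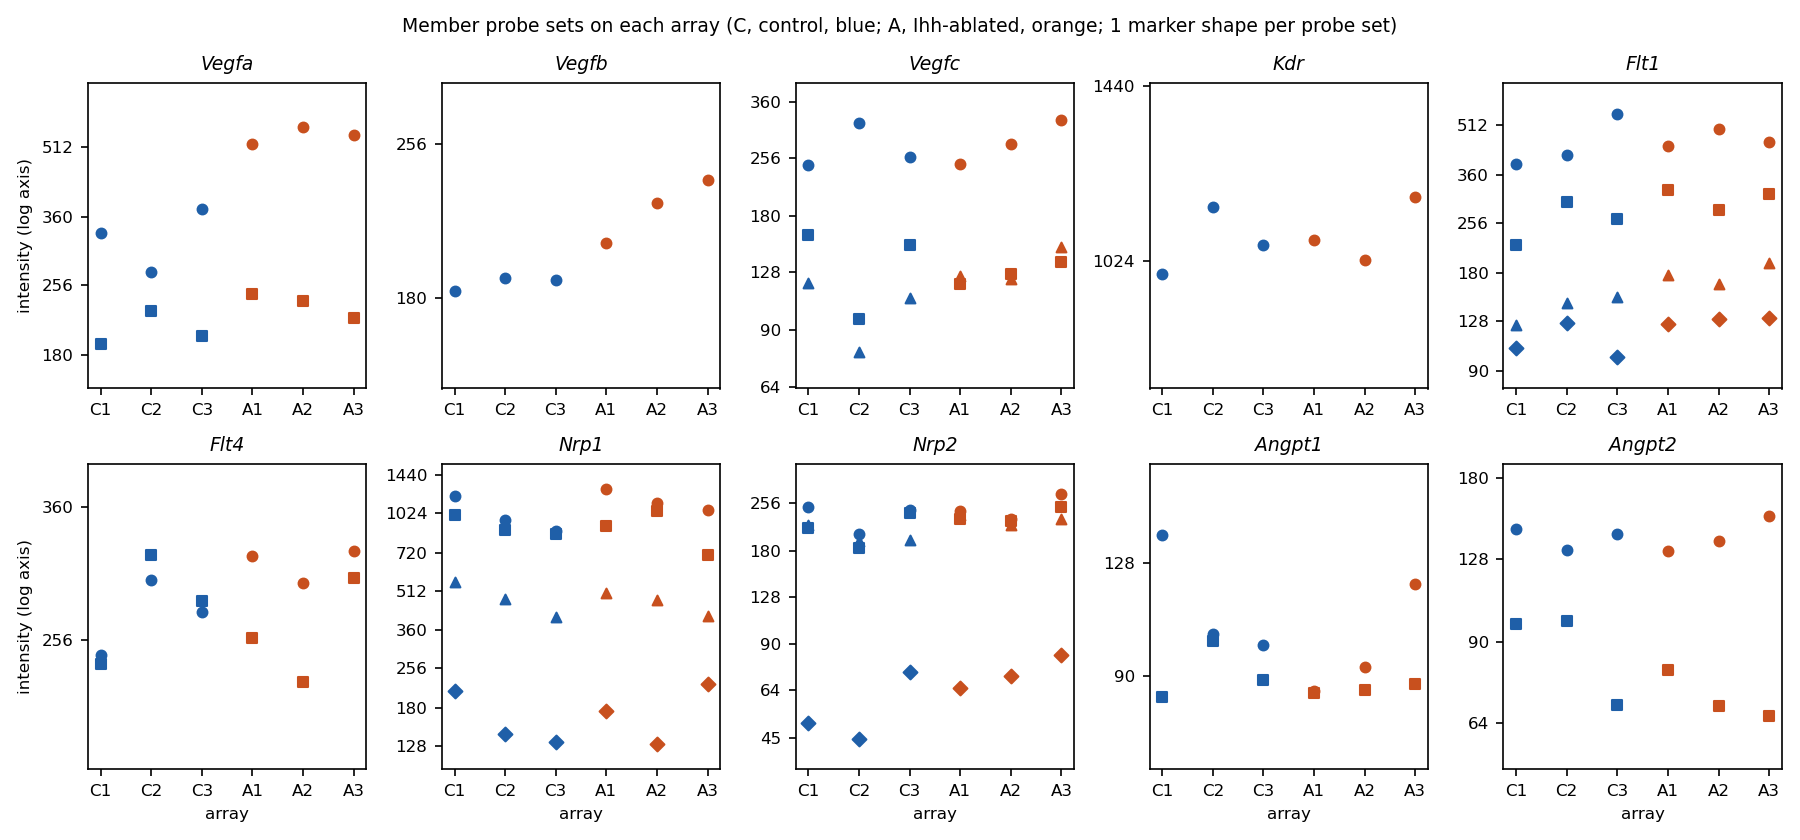
Intensity (log axis) of all 25 member probe sets on each of the 6 arrays, 1 panel per gene and 1 marker shape per probe set, with control arrays (C1 to C3) in blue and Ihh-ablated arrays (A1 to A3) in orange. The upper Vegfa probe set lies between 273.5 and 374.3 in control and between 520.2 and 565.7 in Ihh-ablated uteri, while Kdr lies between 998.7 and 1159.4 over both groups.

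Vegfa is the principal endothelial growth factor of the family, and both of its probe sets were tested. The brighter, 1420909_at, gave 332.9, 273.5 and 374.3 on the control arrays and 520.2, 565.7 and 544.9 on the Ihh-ablated arrays. The groups were apart by more than the range within either, with control replicate 2 lowest. Means were 326.9 ± 50.7 and 543.6 ± 22.8 (SD, n = 3 each), and the log2 difference was 0.74 (SE 0.12, 95% interval 0.47 to 1.02, limma adjusted p = 0.0196). The difference stayed between 0.62 and 0.85 without any 1 array. The call depended on which array was left out, being lost without control replicate 1 (adjusted p = 0.0815) and without Ihh-ablated replicate 1 (0.0782), 2 (0.0682) or 3 (0.0804), and kept without control replicate 2 (0.0378) or 3 (0.00543). In those fits with 5 arrays, calls over the whole array ranged from 148 to 3582, against 724 with all 6. Without both control replicate 3 and Ihh-ablated replicate 2, the arrays highest in muscle and pancreas markers, it was 0.82 (adjusted p = 0.0121). Adding the adipocyte marker mean to the model gave 0.69 without a call (adjusted p = 0.270), in a fit that called 19 of 33777 probe sets in all.

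The other Vegfa probe set, 1451959_a_at, gave a smaller difference. It read 190.1, 225.0 and 197.6 in control uteri against 244.4, 236.2 and 216.7 after Ihh ablation, so that the groups overlapped (log2 0.19, 95% interval -0.07 to 0.45, adjusted p = 0.344). Control replicate 2, the lowest array on the brighter probe set, was the highest control here. The within-array log2 gap between both probe sets was 0.81, 0.28 and 0.92 in control uteri against 1.09, 1.26 and 1.33 after Ihh ablation, wider in each Ihh-ablated array than in any control. The mean gap differed by 0.56 (two-sided exact permutation p = 0.10, the smallest that 3 against 3 arrays allow, and 0.55 after Benjamini-Hochberg adjustment over the 22 pairs of probe sets compared within member genes). Which part of the Vegfa transcript each probe set reads was not analysed here.

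**Figure D2:**
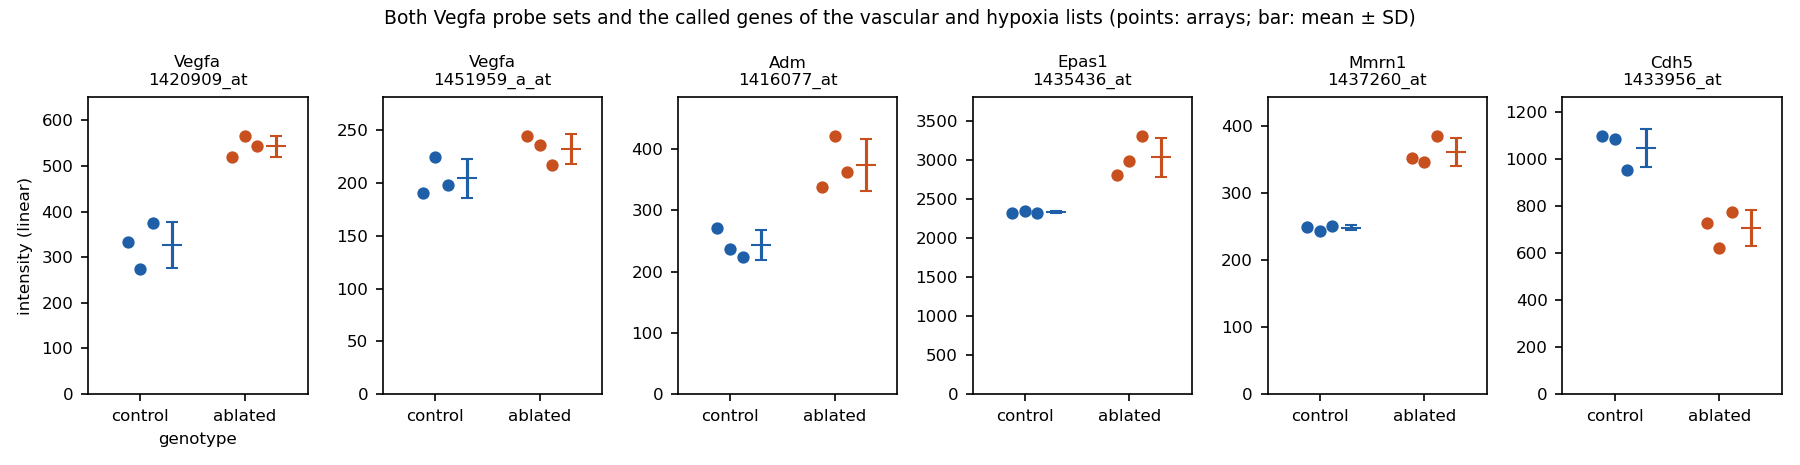
Linear intensity from 0 of both Vegfa probe sets and of the 4 genes called in the vascular and hypoxia lists, with points for the 3 arrays of each genotype and the mean ± SD beside them. The first Vegfa panel shows groups that are apart (326.9 against 543.6), the second groups that overlap (204.2 against 232.4).

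Neither of the remaining ligands passed. Vegfb encodes a ligand of VEGFR1 prominent in muscle and fat, and its single probe set read 182.7, 188.4 and 187.6 in control uteri against 204.0, 223.7 and 235.7 after Ihh ablation. The control arrays lay close together and each was below each Ihh-ablated array, but the difference did not pass (186.3 ± 3.09 against 221.1 ± 15.98, log2 0.25, 95% interval -0.00 to 0.49, adjusted p = 0.220). Over all 18 alternatives the difference lay between 0.17, with the adipocyte marker mean in the model, and 0.34, with median-centred arrays, and was never called. Vegfc, the lymphatic growth factor, read 245.9, 316.1 and 258.1 in control uteri against 247.0, 278.2 and 322.6 after Ihh ablation on its brightest probe set, groups that overlapped throughout (log2 0.05, 95% interval -0.27 to 0.36, adjusted p = 0.847). Of its dimmer probe sets, 1440739_at read 96.7 to 160.0 in control and 119.3 to 136.6 with Ihh ablated, the second range inside the first (log2 -0.06, adjusted p = 0.863). The third gave 0.38 (95% interval -0.01 to 0.77, adjusted p = 0.229). This one, 1439766_x_at, did not overlap between groups (79.1 to 120.2 against 122.8 to 148.8), by a gap smaller than the range within either group.

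No receptor probe set passed. Kdr, whose product carries most VEGF-A signalling in endothelium, was bright and steady, at 998.7, 1138.9 and 1056.8 in control uteri against 1068.1, 1027.2 and 1159.4 after Ihh ablation. The arrays of both groups were interleaved, and the log2 difference was 0.03 with a 95% interval of -0.16 to 0.21 (adjusted p = 0.852), the narrowest interval among the members. Flt1 had 4 probe sets with differences of 0.06, 0.25, 0.35 and 0.23 from the brightest to the dimmest, 0 of them past the test (adjusted p = 0.161 to 0.816). The brightest, 1419300_at, read 388.8, 415.5 and 552.9 in control uteri against 440.8, 499.1 and 455.8 after Ihh ablation, where control replicate 3 was highest of all. The third, 1440926_at, read 124.5, 145.5 and 151.6 in control uteri against 177.2, 165.7 and 192.3 after Ihh ablation. These groups did not overlap, the interval was 0.06 to 0.63, and the adjusted p of 0.161 did not pass. On the remaining Flt1 probe sets the groups overlapped, at 218.6 to 298.0 against 281.2 to 323.5 for 1451756_at and at 99.1 to 125.7 against 124.9 to 130.6 for 1454037_a_at. Which of the Flt1 probe sets read the soluble form, a secreted trap for VEGF-A, is not given by the annotation used here.

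Flt4, the lymphatic receptor, gave 0.19 (95% interval -0.06 to 0.44, adjusted p = 0.314) and -0.10 (-0.42 to 0.23, adjusted p = 0.695) on its 2 probe sets. On 1444052_at the arrays read 246.5, 299.0 and 275.7 in control uteri against 317.8, 296.6 and 322.3 after Ihh ablation, and on 1421442_at 240.8, 319.0 and 283.0 against 257.6, 230.1 and 300.8. The groups overlapped on both. The log2 gap between these probe sets was -0.09 to 0.03 in control uteri against 0.10 to 0.37 after Ihh ablation (difference 0.29, two-sided exact permutation p = 0.10, the smallest possible). Such gaps did not overlap between genotypes for 4 of the 22 pairs of probe sets, also for a Vegfc pair (difference -0.44) and a Nrp1 pair (0.25), all with p = 0.10 in the exact permutation test. Pairs of a gene share probe sets, and the share of such pairs over all genes was not computed. The count therefore has no background to be set against and is not read as a result about the members.

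The neuropilins bind VEGF as co-receptors and also class 3 semaphorins. Nrp1 was bright on 1448943_at, with 1196.9, 961.2 and 870.0 in control uteri against 1275.2, 1120.2 and 1053.3 after Ihh ablation. These groups overlapped, with replicate 1 highest in each (log2 0.20, 95% interval -0.08 to 0.47, adjusted p = 0.354). The other 3 Nrp1 probe sets overlapped too and 0 of the 4 passed. Control ranged from 848.1 to 1006.0 and Ihh-ablated from 705.6 to 1042.1 on 1418084_at (log2 -0.05), from 404.4 to 555.4 and from 408.9 to 499.6 on 1448944_at (log2 -0.05), and from 132.6 to 208.5 and from 130.0 to 221.6 on 1457198_at (log2 0.12). Probe sets of the gene thus gave values on both sides of 0. Nrp2 had 3 tested probe sets with differences of 0.09, 0.15 and 0.17 (adjusted p = 0.368 to 0.657). Its brightest, 1435349_at, read 249.2, 204.3 and 244.1 in control uteri against 241.3, 228.2 and 275.0 after Ihh ablation, again overlapping. The others overlapped as well, at 183.7 to 239.0 against 223.9 to 249.3 for 1426528_at and at 193.4 to 218.4 against 217.5 to 234.6 for 1456778_at. The fourth Nrp2 probe set, 1447343_at, at 44.5 to 73.2 in control uteri against 65.2 to 83.1 after Ihh ablation, was the only member probe set below the level set for testing (a mean log2 of 6.16, an intensity of about 71.4).

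The angiopoietins were dim and did not pass. Angpt1, the Tie2 agonist made by perivascular cells, read 139.8, 102.8 and 99.2 in control uteri against 86.1, 92.7 and 120.0 after Ihh ablation on 1439066_at (log2 -0.19, 95% interval -0.59 to 0.21, adjusted p = 0.522). Control replicate 1 was highest and the other arrays of both groups were mixed. Its other probe set, 1421441_at, read 84.3 to 100.5 in control and 85.6 to 87.8 with Ihh ablated (log2 -0.07, adjusted p = 0.730). Angpt2, released by activated endothelium, read 144.8, 132.8 and 141.8 in control uteri against 132.1, 137.8 and 153.0 after Ihh ablation on 1448831_at (log2 0.01, 95% interval -0.26 to 0.28, adjusted p = 0.963). The dimmer 1459636_at gave -0.29 (95% interval -0.66 to 0.09, adjusted p = 0.318), with control replicate 3 at 68.8 among the Ihh-ablated values of 65.7 to 80.0 and the remaining controls at 97.1 and 98.3.

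**Figure D3:**
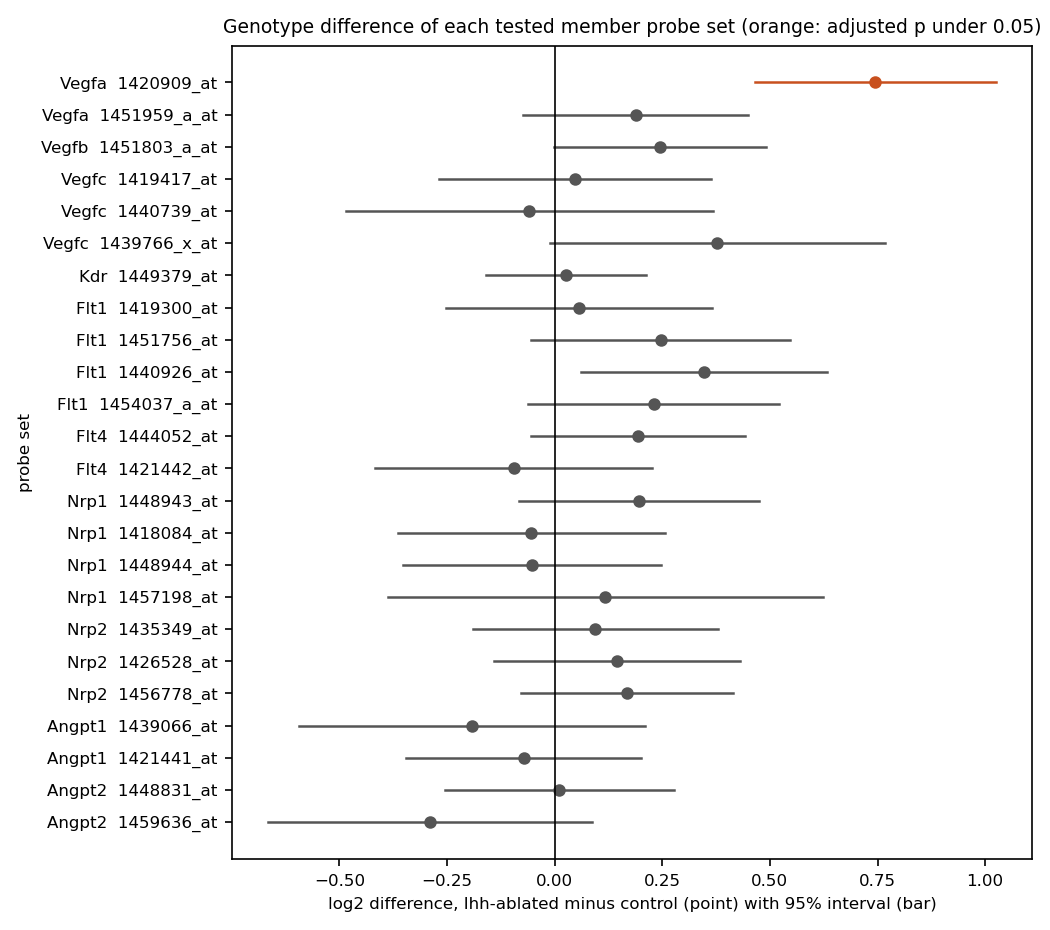
Log2 difference, Ihh-ablated minus control, of the 24 tested member probe sets (points) with 95% intervals (bars), ordered by gene and brightness. The orange Vegfa point at 0.74 is the only one that passed an adjusted p of 0.05, and among the other 23 intervals only that of Flt1 1440926_at (0.06 to 0.63) does not hold 0.

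Further genes of the pathway were counted list by list, each gene by its brightest probe set. Of 6 other ligands and receptors (Pgf, Vegfd, Angpt4, Tek, Tie1 and Ptprb) 0 passed, with a median log2 difference of 0.07. The lowest adjusted p was that of Ptprb, the endothelial phosphatase that restrains Tie2 and VEGFR2, at 439.3, 449.5 and 530.3 in control uteri against 550.5, 713.4 and 714.8 after Ihh ablation (log2 0.47, adjusted p = 0.0933). Its second tested probe set gave 0.16 with groups that overlapped (adjusted p = 0.378), and the first passed without control replicate 3 (0.56, adjusted p = 0.0313). Tek, which encodes Tie2, overlapped between groups (453.4 to 561.6 against 491.3 to 574.0, adjusted p = 0.771). Vegfd, chosen here after its values were seen, read 1163.9, 1212.4 and 678.4 in control uteri against 641.5, 603.8 and 717.5 after Ihh ablation on its brightest probe set (log2 -0.59, adjusted p = 0.137). Control replicate 3, the array highest in skeletal muscle markers, sat with the Ihh-ablated arrays there. Without that array the difference was -0.86 (adjusted p = 0.00281), and without it and Ihh-ablated replicate 2 it was -0.81 (adjusted p = 0.00317). Vegfd's other probe sets gave -0.09 and 0.00. Calls were more common over the whole array in those fits. They took in 10.6% of tested probe sets without control replicate 3 and 5.86% without both arrays, against 2.14% with all 6.

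Among 18 genes of VEGF receptor signalling and the endothelial response 0 passed (median -0.06). Dll4, the Notch ligand that VEGF induces in sprouting tip cells, came closest, at 1103.2, 1268.4 and 563.1 in control against 479.9, 393.0 and 500.5 (log2 -1.02, SE 0.26, adjusted p = 0.0818). The groups did not overlap, yet control replicate 3 lay nearer to the Ihh-ablated arrays than to the other controls. Dll4 passed without control replicate 3 (-1.38, adjusted p = 0.00142), without it and Ihh-ablated replicate 2 (-1.27, adjusted p = 0.000498) and with array weights (-0.98, adjusted p = 0.0407), and with the adipocyte covariate it was -0.71 (adjusted p = 0.598). Its dimmer probe set overlapped between groups (-0.45, adjusted p = 0.231). Of all tested probe sets 10.6% were called without control replicate 3, 5.86% without both arrays and 4.18% with array weights, against 2.14% in the main fit. Of 12 class 3 semaphorins and plexins, which share the neuropilins, 0 passed (median -0.05). The lowest adjusted p was that of Sema3f (log2 -0.67, adjusted p = 0.106), whose other probe sets gave 0.09 and 0.03. Its brightest probe set passed without control replicate 3 (-0.93, adjusted p = 0.00156) and without it and Ihh-ablated replicate 2 (-0.87, adjusted p = 0.000931).

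Endothelial genes were counted because the receptors are made mainly by endothelium. Of 20 endothelial identity genes 19 did not pass, 1 fell and 0 rose (median 0.02). In whole tissue fewer cells of a type and less RNA per cell cannot be told apart. The list summed to 12465 to 13228 in control uteri against 12227 to 14190 after Ihh ablation, ranges that overlap. Cdh5, the VE-cadherin of endothelial junctions, fell from 1096.1, 1085.3 and 951.2 to 725.0, 621.0 and 771.7, groups that did not overlap (log2 -0.57, SE 0.10, adjusted p = 0.0275). That call was lost without control replicate 1 (adjusted p = 0.119) or 2 (0.0907) and without Ihh-ablated replicate 1 (0.0934) or 2 (0.0743), with median-centred arrays (0.0838), with no intensity trend (0.0742) and with the adipocyte covariate (0.333). The difference itself lay between -0.64 and -0.48 in these and all other alternatives, and was -0.52 with the covariate. Pecam1, another pan-endothelial gene, overlapped (472.6 to 617.0 against 499.3 to 601.0, adjusted p = 0.909). Groups did not overlap for 4 of the 20 genes, against 5018 of 15530 genes over the array. Besides Cdh5 these were Vwf, Sox7 and Plvap, all higher after Ihh ablation and uncalled. Their log2 differences were 0.63, 0.50 and 0.31 (adjusted p = 0.0730, 0.108 and 0.145). Of the 20 differences 11 were above 0 and 9 below.

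Lymphatic endothelium markers had 1 rise, 0 falls and 3 that did not pass among 4 tested genes (median 0.47). Mmrn1 rose from 249.6, 243.3 and 249.9 to 351.3, 345.9 and 384.4 (log2 0.54, SE 0.10, adjusted p = 0.0278), with controls within a few units of each other. The call was lost without each single array except control replicate 3 (adjusted p 0.0530 to 0.147), without both arrays high in muscle and pancreas markers (0.0513) and with the adipocyte covariate (0.343), while the difference stayed between 0.49 and 0.63 over all alternatives. Lyve1 read 419.1 to 555.7 against 549.1 to 655.8 (adjusted p = 0.128). The lymphatic list summed to 1230 to 1398 in control uteri against 1537 to 1740 after Ihh ablation. Neither Vegfc nor Flt4, the ligand and receptor of these vessels, passed. Of 8 pericyte genes 0 passed (median 0.13), the lowest adjusted p being that of Abcc9, a potassium channel subunit of mural cells (log2 0.37, adjusted p = 0.0956). Abcc9 passed without Ihh-ablated replicate 2 (0.48, adjusted p = 0.0338) and without it and control replicate 3 (0.47, adjusted p = 0.0167). Those fits called 1.05% and 5.86% of all tested probe sets, against 2.14% in the main fit.

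Hypoxia response genes were listed because Vegfa is a classical target of the HIF factors. Of 15 tested 2 rose, 0 fell and 13 did not pass, with a median of 0.17. Epas1, which encodes HIF-2 alpha, rose from 2323.4, 2352.9 and 2322.3 to 2808.5, 2992.8 and 3307.1 (log2 0.38, SE 0.07, adjusted p = 0.0260), while its dim second probe set gave -0.01 (adjusted p = 0.961). Adm, the vasodilator peptide adrenomedullin, rose from 271.3, 236.1 and 223.7 to 338.4, 421.2 and 363.2 (log2 0.62, SE 0.12, adjusted p = 0.0394), with its other probe set at 0.38 (adjusted p = 0.157). Both sets of arrays were apart for Epas1 and Adm on their brighter probe sets. Epas1 was lost without control replicate 1 or 2 or Ihh-ablated replicate 2 or 3 (adjusted p 0.0646 to 0.105), and Adm without each single array except control replicate 3 (0.0777 to 0.146). Both lost the call with no intensity trend (0.117 and 0.0665) and with the adipocyte covariate (0.343 and 0.25), Epas1 with median-centred arrays (0.0549), and Adm after quantile normalization (0.0541), without the filter (0.0592) and without both arrays high in muscle and pancreas markers (0.110). The differences lay between 0.31 and 0.47 for Epas1 and between 0.47 and 0.71 for Adm over all alternatives, with 0.31 and 0.71 under the covariate. Pgk1, a glycolytic enzyme and HIF target picked here after its values were seen, read 2049.6 to 2181.6 in control uteri against 1520.4 to 1794.6 after Ihh ablation (log2 -0.34, adjusted p = 0.0564).

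**Figure D4:**
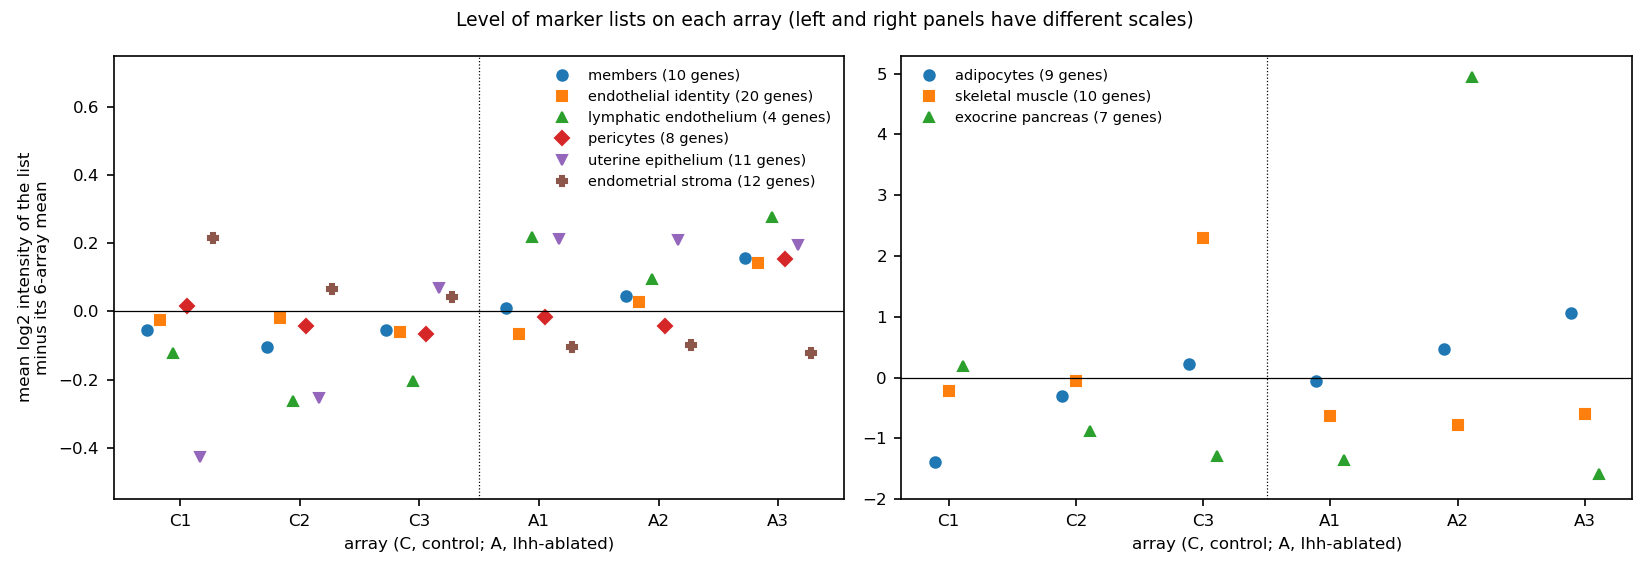
Mean log2 intensity of each marker list on each array, minus its mean over the 6 arrays (left, the members, vascular, epithelial and stromal lists; right, lists of other tissues on a wider axis). Endothelial and pericyte lists reach at most 0.15 from their mean, uterine epithelium runs from -0.43 to 0.21, and pancreas markers reach 4.94 in Ihh-ablated replicate 2.

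Markers of other uterine cell types that could make Vegfa were also summarised by array. The 11 uterine epithelium markers had a mean log2 deviation of -0.43, -0.26 and 0.07 in control uteri against 0.21, 0.21 and 0.19 after Ihh ablation, groups that did not overlap, with 0 of the 11 past the test. The 12 endometrial stroma markers had deviations of 0.22, 0.07 and 0.04 against -0.11, -0.10 and -0.12, also without overlap, and of these genes 2 fell, 1 rose and 9 did not pass. Thy1, a surface protein of stromal cells, fell (log2 -1.44, adjusted p = 0.00139), as did Vim, the intermediate filament of mesenchymal cells (-0.37, adjusted p = 0.0139), and Dcn, a collagen-binding proteoglycan, rose (0.24, adjusted p = 0.0488). Of 8 smooth muscle genes 1 fell, the enteric smooth muscle actin Actg2 (-0.25, adjusted p = 0.0337), and the list's deviations overlapped. The 7 macrophage markers had deviations of -0.06, -0.16 and -0.04 against 0.09, -0.03 and 0.19, also without overlap, with 0 past the test. By summed intensity the groups overlapped for all of these lists. Sums were 3577 to 3752 against 3675 to 4386 for macrophages and 11475 to 16881 against 16523 to 18142 for epithelium. For stroma they were 53478 to 57763 against 51485 to 53628. The part of these cell types in the Vegfa difference was not tested. Of the 5 genes whose 6-array pattern was closest to the brighter Vegfa probe set, Plekha5 had a Pearson r of 0.995, Pde7b and Zxda 0.994, Rabgef1 0.992 and Ufl1 0.991. These values describe 6 arrays only, and 254 genes had an r above 0.95. None of the 5 passed the test (adjusted p = 0.0567 to 0.159).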

How the data were processed

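The values are the authors' deposited intensity of each probe set, linear rather than log, on 6 arrays. The labels' protocols describe biotinylated cRNA prepared by the Affymetrix procedure. How the authors summarised, background-corrected and normalized is not given in the sources used here, and whatever they did to dim probe sets would change those differences most. Array medians show the scale, and no detection calls were used.

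Control probe sets (64) were left out of 45101. Among the other 45037 the platform annotation gave 1 symbol for 34945, several for 932 and none for 9160. Symbols were checked by Entrez identifier against RefSeq (34741 found, 0 changed). Values under 16 (1821 of them) were set to 16, log2 was taken, and the lowest 25% by mean log2 were not tested. limma 3.58.1 in R 4.3.3 (lmFit, eBayes with trend, 4 residual and 5.25 prior degrees of freedom) compared genotypes over 33777 probe sets with Benjamini-Hochberg adjustment. Folds and SEs are from the log2 model, means and SDs from linear intensities. Tested on simulated data for this comparison (33777 probe sets), it called 85 of 100 true 2-fold and 96 of 100 true 4-fold changes. Of its 190 calls 9 were false. These rates describe the simulated data only. Rates for smaller changes, such as the 1.68-fold of Vegfa, and for real arrays that differ in markers of other tissues were not measured. Members and gene lists were chosen with earlier results of these data known, as were the alternatives that leave out 2 arrays together or add the adipocyte covariate. Named genes were all members, the called genes of the other lists or, in the vascular and hypoxia lists with no call, the one of lowest p, checks of the ablation, and the 5 genes most like Vegfa. Vegfd, Tek, Pecam1, Vwf, Sox7, Plvap, Lyve1, Mylpf and Pgk1 fall outside that rule and were chosen after their values were seen. The alternatives covered scaling, floor, filter, variance model, array weights, replicate block, arrays left out, covariate and the mean of probe sets. Plots came from matplotlib 3.10.9 (Python 3.11.15).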

Additional observations from a re-analysis of the deposited data

How the results depend on the processing

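The count of 1 called member probe set and 1 called member gene, Vegfa both times, held under quantile normalization, median-centred arrays, floors of 64 and 1, no filter, the lowest 50% left out, no intensity trend, robust eBayes, array weights and with control replicate 3 and Ihh-ablated replicate 2 both left out. The gene count also held with the mean of a gene's probe sets. Both counts were 0 with the adipocyte covariate, and 0 to 1 when each array was left out in turn, for which the cause was not tested. Whether replicate numbers pair the samples could not be settled. Deviations of same-numbered arrays from their group means correlated at -0.152, -0.043 and 0.249. Differently numbered arrays correlated at -0.237 to 0.319, and not every array correlated best with its own number. With 3 arrays per group the deviations within a group depend on each other, so these values cannot decide it. With the replicate block both counts were 1, while calls over all probe sets rose from 724 to 1562. Outside the members the block also brought Dll4 (adjusted p = 0.0358), Sema3f (0.0491), Ptprb (0.0337) and Abcc9 (0.0384) past the threshold. Those calls numbered 374 with no intensity trend, 1411 with array weights, 1981 without both arrays, 19 with the adipocyte covariate and 148 to 3582 when each array was left out. Tested member probe sets lay between the 29.1 and 94.2 percentile of mean intensity, and signal over background is unknown here, which limits the dimmest most. Vegfa 1420909_at kept its direction in all 18 alternatives, as did its second probe set and Vegfb. The other 11 probe sets that never changed sign were uncalled throughout, each in the alternatives that tested it. A further 10, all uncalled, changed sign in at least 1 alternative. With median-centred arrays, which moved the median of all probe sets from -0.04 to 0.05, Nrp1 1418084_at was 0.04, Nrp1 1448944_at 0.04, Vegfc 1440739_at 0.03 and Angpt1 1421441_at 0.02. After quantile normalization Vegfc 1440739_at was 0.04, Angpt1 1421441_at 0.03 and Kdr -0.01. With array weights Angpt2 1448831_at was -0.03 and Nrp1 1457198_at -0.06. Without both arrays Flt4 1421442_at was 0.01 and Vegfc 1440739_at 0.04. With the adipocyte covariate Nrp1 1418084_at was 0.16, Nrp1 1448944_at 0.21, Flt1 1419300_at -0.15, Vegfc 1419417_at -0.12, Angpt2 1448831_at -0.03 and Kdr -0.05. Leaving out each array in turn gave -0.18 to 0.10 and -0.17 to 0.06 for these Nrp1 probe sets, -0.07 to 0.32 for Nrp1 1457198_at, -0.04 to 0.21 for Flt1 1419300_at, -0.05 to 0.16 for Vegfc 1419417_at, -0.29 to 0.08 for Vegfc 1440739_at, -0.20 to 0.00 for Flt4 1421442_at, -0.05 to 0.06 for Angpt2 1448831_at and -0.02 to 0.08 for Kdr. The cause of these sign changes was not tested.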
